A study of Mus musculus and Rattus norvegicus with 26 samples.

Results

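Introns in which the sequenced reads formed 5 or more separate contigs are described here. A contig is a stretch of an intron covered by reads that the authors joined when they lay within 500 nt of each other, and the deposited lists give the contigs of each RefSeq transcript and intron. Members were chosen by their number of contigs alone, 5 or more in at least 1 of 6 lists. Of 85860 pairs of a transcript and an intron over the 6 lists, 1263 were members. They came to 857 distinct introns of 662 genes in mouse and to 42 distinct introns of 37 genes in rat. Because the choice used the contigs, their number, span, spacing, length and reads are given as descriptions with no test.

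The study sequenced RNA from parts of neurons and from single cells to find intron sequence in transcripts outside the nucleus, named cytoplasmic intron-sequence retaining transcripts (CIRTs). The mouse neurons came from hippocampi of C57BL/6 embryos at embryonic day 18 and the rat neurons from hippocampi of Sprague-Dawley embryos of the same embryonic day, both after primary culture; pools of dissected dendrites gave 3 mouse and 2 rat libraries, and somas, which also hold nuclear RNA, gave 3 mouse and 3 rat libraries. Interscapular brown adipose tissue (BAT) of CD-1 embryos at embryonic day 17.5 gave 6 libraries of BAT cells, and ventricles of embryos at embryonic day 14.5 gave 9 libraries of cardiomyocytes. The cardiomyocytes were sorted by flow cytometry from hemizygous transgenic C57BL/6 mice that carried the cell cycle reporter mAG-hGem under a CMV promoter. All 26 libraries went through 3 rounds of antisense RNA (aRNA) amplification, which primes on stretches of adenines. The numbers of libraries are those of the labels, the text of the study counts fewer BAT cells and cardiomyocytes, and which libraries entered each list is not settled here. Each list pools the libraries of a group, so no spread between libraries could be given, and the 95% Wilson intervals below cover counting error only.

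An intron is removed from the primary transcript in the nucleus as a lariat, and it is usually degraded soon after. Introns differ widely in length, the first intron of a gene tends to be the longest, and very long introns are common in genes for adhesion proteins, receptors and channels of the brain. Pieces of introns can remain in transcripts that reach the cytoplasm, and stretches of adenines inside introns can prime reverse transcription from any RNA that holds the intron.

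Of 857 distinct mouse introns, 13 were members in all 4 mouse lists. Within these 13 introns only 9 stretches of at least 50 bases lay inside a contig of all 4 lists, in 5 introns. One stretch from each of the 5 introns is shown because these were the places that dendrites, somas, BAT cells and cardiomyocytes had in common. The sequences were read from the NCBIM37 (mm9) genome in the direction of the host gene and are cut to at most 300 bases, with runs of 8 or more A or T in capitals.
Cacnb2 intron 2, chr2:14548502-14548726, plus strand: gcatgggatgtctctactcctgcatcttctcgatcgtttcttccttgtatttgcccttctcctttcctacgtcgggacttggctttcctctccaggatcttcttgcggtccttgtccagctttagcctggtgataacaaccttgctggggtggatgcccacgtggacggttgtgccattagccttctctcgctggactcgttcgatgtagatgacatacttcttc
Il1rapl1 intron 2, chrX:85016084-85016297, minus strand: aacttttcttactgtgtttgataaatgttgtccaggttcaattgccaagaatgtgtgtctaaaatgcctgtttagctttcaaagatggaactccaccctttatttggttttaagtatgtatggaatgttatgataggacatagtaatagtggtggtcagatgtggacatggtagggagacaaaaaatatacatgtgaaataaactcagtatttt
Large intron 6, chr8:75516866-75517165, minus strand: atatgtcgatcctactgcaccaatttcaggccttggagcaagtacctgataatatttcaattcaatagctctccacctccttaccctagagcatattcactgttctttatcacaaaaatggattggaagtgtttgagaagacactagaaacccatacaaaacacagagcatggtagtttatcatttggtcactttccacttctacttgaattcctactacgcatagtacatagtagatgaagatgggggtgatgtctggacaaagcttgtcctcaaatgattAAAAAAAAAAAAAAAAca
Qk intron 1, chr17:10502372-10502671, minus strand: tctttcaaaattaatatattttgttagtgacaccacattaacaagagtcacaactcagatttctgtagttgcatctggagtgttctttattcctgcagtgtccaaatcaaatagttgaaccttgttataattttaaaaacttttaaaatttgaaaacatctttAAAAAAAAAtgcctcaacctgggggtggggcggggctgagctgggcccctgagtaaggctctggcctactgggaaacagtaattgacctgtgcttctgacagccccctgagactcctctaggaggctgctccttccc
Qk intron 3, chr17:10466715-10466766, minus strand: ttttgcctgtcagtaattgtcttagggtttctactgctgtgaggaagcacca

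The first of these sequences, in the second intron of Cacnb2, matched annotated coding sequence of the mouse on the opposite strand in 3 runs of 53, 67 and 57 bases, of which the run of 67 bases was found in 2 genes, Gm10136 among them, and those of 53 and 57 bases in Rpl26, a protein of the large ribosomal subunit. Words of 32 bases from this stretch occurred elsewhere in the mouse genome in 78.9% of cases. The share was 26.2% for the stretch of Il1rapl1 and 0% for the stretches of Large and Qk, so these last were single-copy sequence at that word length.

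The ends of contigs are shown for a second reason, since member contigs ended next to tracts of adenines more often than windows of the same introns held one. A tract was 10 or more A in a row on the strand of the host gene, counted only outside the contig, so that a run of A reaching into the contig was counted from the contig's end. For 2 of the member introns with the most contigs in mouse somas, the sequences run from 40 bases before the end of a contig to 10 bases past the tract, and capitals mark the tract bases outside the contig. The contigs were picked because a tract lay close to their end.
Il1rapl1 intron 2, chrX:84926031-84926090, minus strand: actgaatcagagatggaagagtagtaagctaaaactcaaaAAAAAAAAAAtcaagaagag
Rims1 intron 2, chr1:22700067-22700133, minus strand: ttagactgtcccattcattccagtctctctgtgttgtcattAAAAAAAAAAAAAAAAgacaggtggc

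In the Il1rapl1 example the run of A began inside the contig and went on for 10 bases past its end. In the Rims1 example 1 nt lay between the end of the contig and a tract of 16 bases.

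The lists as deposited gave the most members in BAT cells and the fewest in rat dendrites. Of 30018 introns listed for BAT cells, 676 were members, 2.25% (95% interval 2.09 to 2.43), in 548 genes. Mouse dendrites had 358 members among 19477 introns, 1.84% (1.66 to 2.04), in 277 genes. Mouse somas had 86 of 10568, 0.814% (0.659 to 1.00), and cardiomyocytes 93 of 13056, 0.712% (0.582 to 0.872). In rat, 22 of 7426 introns were members in dendrites, 0.296%, and 28 of 5315 in somas, 0.527%. Counting only contigs of at most 400 nt, a limit that the methods give for the lists of whole cells but that the deposited lists exceed, left 26 members in mouse somas, 290 in BAT cells, 29 in cardiomyocytes and 4 in rat somas. With that limit for whole cells alone the order changes at both ends, since the 358 of mouse dendrites exceed the 290 of BAT cells and rat somas have the fewest. The lists differ in libraries, strain, age and reads, so the shares cannot be told apart from those differences.

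These few introns held a larger part of the contigs and reads. Members carried 9.56% of all contigs in mouse dendrites, 4.97% in mouse somas, 11.5% in BAT cells and 4.87% in cardiomyocytes. They carried 10.1%, 8.67%, 11.2% and 10.1% of all intron reads in the same order. In rat the members held 1.83% of contigs and 1.24% of reads in dendrites, and 3.21% and 4.63% in somas. Introns with 10 or more contigs numbered 47 in mouse dendrites, 16 in mouse somas, 107 in BAT cells, 17 in cardiomyocytes, 3 in rat dendrites and 4 in rat somas.

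The labels of the groups were compared with markers among all listed introns. The lists hold only introns left after the authors' filters and no exon reads, so they do not measure the expression of a marker. Of 8 brown fat markers 6 were listed in BAT cells, with 77767 intron reads, and of 8 cardiomyocyte markers 7 were listed in cardiomyocytes, with 334221. BAT cells also listed 6 cardiomyocyte markers, with 49641 reads, and 4 of 8 neuron markers, with 10884 reads. The neuron markers in mouse somas had 11678 reads, but of 1855447 intron reads in that list against 17858440 in the list of BAT cells. Cardiomyocytes also listed 3 brown fat markers with 3505 reads and 2 neuron markers with 4678. Neuron markers listed were 5, 7, 3 and 4 of 8 in mouse dendrites, mouse somas, rat dendrites and rat somas. Map2, a defining marker of dendrites, had no intron in any of the 6 lists, but a marker without a listed intron can still be expressed. In mouse dendrites the 5 neuron markers had 636 reads, fewer than the 1601 reads of 5 cardiomyocyte markers. Mouse dendrites also listed 4 of 8 brown fat markers with 399 reads and all 5 glial markers with 163, while the other 3 neuronal lists held at most 2 glial markers. BAT cells listed 3 glial markers with 790 reads and cardiomyocytes 0. Of 5 markers of endothelium and blood, mouse dendrites listed 4 with 241 reads, mouse somas 3 with 1051, BAT cells 4 with 2796, cardiomyocytes 1 with 11, rat dendrites 0 and rat somas 1 with 125. Syt1, a calcium sensor of synaptic vesicles, was the only marker of any cell type with a member intron, in mouse somas and in BAT cells. The part of other cells in the member counts was not tested.

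The members were long introns. Intron lengths came from the GENCODE annotation of NCBIM37, in which all 1213 mouse member rows were given an intron. Of these, 1186 were matched by gene symbol and intron number, 16 by symbol only and 11 to an intron under another symbol. The median length was 70674 nt in mouse dendrites, 79067 nt in mouse somas, 45611.5 nt in BAT cells and 67134 nt in cardiomyocytes. Introns with 1 contig had medians of 3080, 3205, 2084 and 2329.5 nt in the same lists. The shortest member was an intron of 5798 nt in BAT cells and the longest the second intron of Il1rapl1, 470851 nt, a member in all 4 lists. The choice did not use lengths, but the lengths were not independent of the contigs. The intron taken was the shortest annotated one that held all contigs of the pair, with the same symbol and number preferred. The first intron of Ppm1h was thus 102752 nt by its contigs in mouse somas and 24760 nt by its contig in mouse dendrites. A longer intron also has more room for contigs that lie over 500 nt apart.

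The share of members was higher in each longer class of introns in each mouse list. In mouse dendrites 0.00660% of introns up to 10 kb were members, 0.345% of those of 10 to 20 kb, 6.03% of those of 20 to 50 kb, 45.1% of those of 50 to 100 kb and 87.0% of 100 introns over 100 kb. BAT cells had 0.0830%, 3.32%, 16.6%, 56.8% and 89.2% (of 102 introns) in these classes, above dendrites in each. Both lists pool their libraries, so these differences could not be set against the spread between libraries. Mouse somas reached only 10.4% at 50 to 100 kb and 33.3% of 93 introns over 100 kb. Cardiomyocytes reached 12% and 31.7% of 82 introns. Most of the listed introns over 100 kb were therefore members in dendrites and BAT cells, and a minority were in somas and cardiomyocytes.

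**Figure D1:**
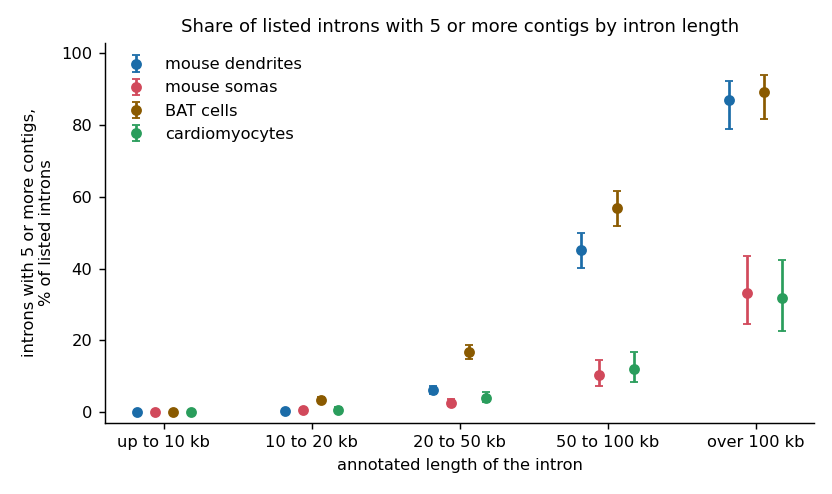
The plot gives, for 5 classes of annotated intron length (horizontal axis, kb), the percentage of listed introns with 5 or more contigs (vertical axis) in each of the 4 mouse lists, with 95% Wilson intervals as bars. Mouse dendrites and BAT cells reach 87.0% and 89.2% over 100 kb, and mouse somas and cardiomyocytes 33.3% and 31.7%.

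Reads moved with these shares. Classes with fewer than 20 introns are not given, among them soma introns over 100 kb with 1024 or more reads. Among introns over 100 kb in mouse dendrites, 76.2% of those with 32 to 255 reads were members, 91.1% with 256 to 1023 reads and 93.8% with 1024 or more. The same classes gave 68.2%, 86.4% and 98.2% in BAT cells. In mouse somas 20% of the introns over 100 kb with 32 to 255 reads and 46.2% with 256 to 1023 reads were members. In these 2 classes over 100 kb, somas thus stayed below dendrites and BAT cells, but not in every shorter class, since 20% of soma and 19.2% of dendrite introns of 20 to 50 kb with 1024 or more reads were members. In cardiomyocytes 0 of 24 introns over 100 kb with fewer than 32 reads were members (95% interval up to 13.8%), and 63.6% of those with 1024 or more reads were.

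Members lay more often in the first intron of a transcript. First introns made up 25.7% of members against 9.0% of all listed introns in mouse dendrites, 25.6% against 8.89% in mouse somas, 26.0% against 8.30% in BAT cells and 31.2% against 7.88% in cardiomyocytes. In rat the figures were 36.4% against 10.8% in dendrites and 32.1% against 9.52% in somas. The X chromosome held 6.70%, 6.98%, 4.73% and 8.60% of the mouse members and 3.49%, 2.79%, 3.09% and 3.39% of all introns of these lists, while in rat, where 2.81% and 2.5% of all introns of dendrites and somas were on X, 0 of 22 and 0 of 28 members were, too few members to set against the mouse shares. Il1rapl1, Dmd and Eda, which led the lists below, are all X-linked, and the part of intron length in both shares was not tested.

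The contigs of a member intron were short and widely spread. The median span from the first to the last contig was 50160.5 nt in mouse dendrites, 54131.5 nt in mouse somas, 32845.5 nt in BAT cells and 50003 nt in cardiomyocytes. It was 114314 nt in rat dendrites and 92240.5 nt in rat somas. The contigs of an intron summed to medians of 2334.5, 3404.5, 2589, 3363, 2625.5 and 3711 nt over the 6 lists in that order. Contigs therefore covered only 4.43% of the span in mouse dendrites, 6.27% in mouse somas, 7.63% in BAT cells, 8.34% in cardiomyocytes, 2.91% in rat dendrites and 4.10% in rat somas at the median. As a share of the whole intron the medians were 3.36%, 4.90%, 5.65% and 6.77% in the mouse lists.

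The spacing was uneven within an intron. The median of the gaps between neighbouring contigs was 6843.75 nt in mouse dendrites, 5869 nt in mouse somas, 4016.25 nt in BAT cells, 4701 nt in cardiomyocytes, 12789.5 nt in rat dendrites and 11026.8 nt in rat somas. The smallest gap of a member had a median of 1480 nt in mouse dendrites and 954 nt in BAT cells, with 501 nt as the lowest in both, the least that the joining of reads allows. The largest gap had a median of 20534.5 nt in mouse dendrites and 12546 nt in BAT cells.

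Contig number went with span more than with reads in 5 of the 6 lists. Spearman's rho between contigs and span over the members was 0.66 in mouse dendrites, 0.59 in mouse somas, 0.64 in BAT cells, 0.59 in cardiomyocytes, 0.63 in rat dendrites and 0.74 in rat somas. Between contigs and reads it was 0.31, 0.46, 0.33, 0.68, 0.39 and 0.49, so that cardiomyocytes were the exception. The points are introns of 1 pooled list each, and a number of contigs sets a least span.

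The read count belongs to the whole intron and was taken once per pair. Members had a median of 460.5 reads in mouse dendrites (23 to 9815), 989.5 in mouse somas (41 to 17484), 1028.5 in BAT cells (6 to 43721) and 5737 in cardiomyocytes (11 to 163979). Rat dendrites had 367.5 (14 to 2748) and rat somas 2234 (246 to 10192). Per 50 nt of contig the medians were 9.33, 12.7, 19.7, 87.3, 6.43 and 32.5 reads in the same order. Introns with 1 contig had 2.78, 2.66, 3.38, 6.74, 2.32 and 3.81 reads per 50 nt, so members were read more densely in every list. Members with few reads existed all the same, such as an intron of BAT cells that reached 5 contigs with 6 reads.

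Just inside the limit stood introns with exactly 5 contigs and just outside those with 4. There were 135 and 283 in mouse dendrites, 27 and 78 in mouse somas, 256 and 460 in BAT cells, 35 and 104 in cardiomyocytes, 10 and 27 in rat dendrites, and 9 and 31 in rat somas. The median reads were 341 with 5 contigs and 217 with 4 in mouse dendrites, and 619.5 and 371 in BAT cells. The median spans were 35083 and 19772 nt in mouse dendrites and 19493.5 and 13065.5 nt in BAT cells. In mouse somas the spans lay side by side, with 21030 nt for 5 contigs and 21700.5 nt for 4.

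**Figure D2:**
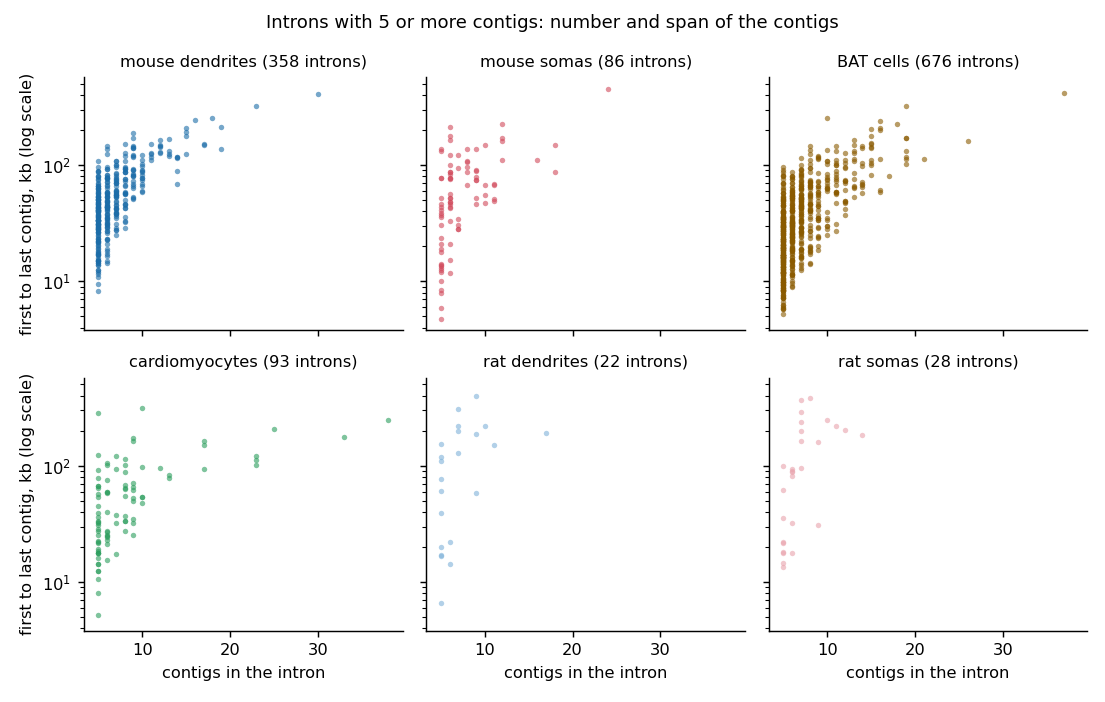
Each point is a member intron in 1 of 6 panels, 1 per list, with the number of contigs on the horizontal axis and the distance from the first to the last contig in kb on a logarithmic vertical axis. Points crowd at 5 contigs, the limit of the choice, and the points farthest to the right are the second introns of Cacnb2 with 38 contigs in cardiomyocytes and of Il1rapl1 with 37 in BAT cells.

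In mouse dendrites the leading introns by contigs and by reads were different ones. Il1rapl1, a synaptic adhesion protein of the interleukin receptor family, held 30 contigs and 1164 reads over 407097 nt in its second intron. Eda, the ligand ectodysplasin, held 23 contigs and 4218 reads over 324781 nt in its first intron. The second intron of Gpr158, an orphan receptor of the brain, held 19 contigs and 2911 reads. The members with the most reads came next. Commd1, a regulator of copper handling, had 9815 reads in 6 contigs of its second intron over 43827 nt, and intron 12 of the adhesion receptor Bai3 had 8274 reads in 5 contigs over 14365 nt. Fat3, a large cadherin, had 6228 reads in 14 contigs of its second intron.

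In mouse somas Il1rapl1 led as well, with 24 contigs and 3852 reads in its second intron over 454064 nt. The second intron of Rims1, which organises the presynaptic release site, held 18 contigs with 14024 reads, which covered 14963 nt or 15.5% of the intron. The fourth intron of Grm5, a metabotropic glutamate receptor, also held 18 contigs, with 6417 reads. Plxdc2, a transmembrane protein with a plexin domain, had the most reads, 17484 in 5 contigs of intron 13, within 12518 nt. Intron 15 of the collagen gene Col19a1 had 8094 reads in 5 contigs. Dense short members such as these stood beside sparse long ones.

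In BAT cells the second intron of Il1rapl1 reached 37 contigs with 7387 reads over 414098 nt, of which 24 contigs were left without those in repeated sequence. The first intron of Dmd, the gene of dystrophin, held 26 contigs with 12396 reads, and the third intron of Cntnap5c, a contactin-associated protein, 21 contigs with 20339 reads, of which 11 contigs were left. The largest read counts were 43721 in intron 13 of Cngb3, a channel subunit of cone photoreceptors, with 6 contigs, and 32070 in intron 10 of Ctnna2, a neuronal catenin, with 7. The first intron of Cpa6, a carboxypeptidase, had 31528 reads in 15 contigs. None of these 6 introns was in a gene of the brown fat list given further on.

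In cardiomyocytes the introns with the most contigs, 23 or more, were in Cacnb2, Dmd, Pde4b, Nebl and Cdh2. Cacnb2, a subunit of the cardiac L-type calcium channel, held 38 contigs in its second intron with 108413 reads over 246328 nt. Dmd held 33 contigs with 163979 reads in its first intron, and these summed to 34009 nt, 18.1% of the intron. Pde4b, a cyclic AMP phosphodiesterase, held 25 contigs with 22364 reads in its first intron. The fourth intron of Nebl, the gene of the Z-disc protein nebulette, held 23 contigs with 80964 reads. The longest span belonged to the first intron of Eda, 311203 nt with 10 contigs and 5170 reads, and 6 of these contigs were left without those in repeated sequence.

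**Figure D3:**
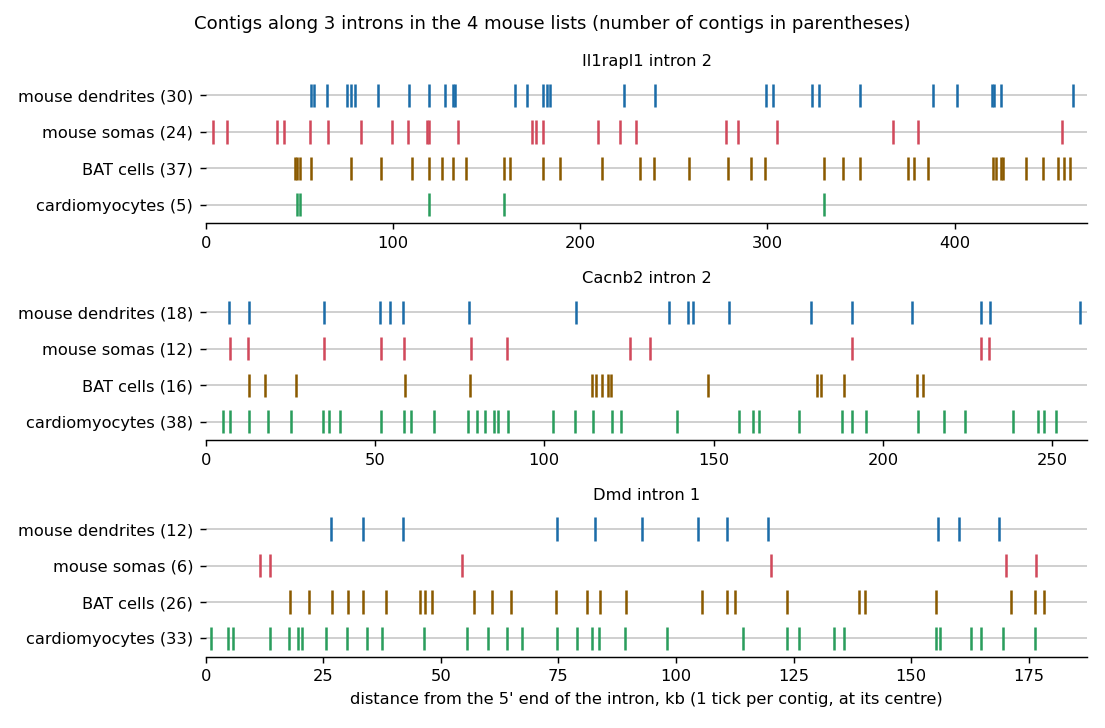
Each tick marks the centre of a contig along the second introns of Il1rapl1 and Cacnb2 and the first intron of Dmd, drawn to scale by distance from the 5′ end of the intron in kb (horizontal axis), with 1 line for each mouse list and the number of contigs in parentheses. Contigs are spread over most of each intron, and Il1rapl1 has 37 in BAT cells but 5 in cardiomyocytes.

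In rat dendrites 17 contigs with 2748 reads lay in the first intron of Ncam1, the neural cell adhesion molecule, over 191286 nt. The third intron of Lsamp and the first of Cadm1, also adhesion proteins of the immunoglobulin family, held 11 contigs with 615 reads and 10 with 752. The fourth intron of Nlgn1, a postsynaptic adhesion protein, spread 9 contigs with 1675 reads over 398085 nt. Intron 15 of Nell1, a secreted protein, had 1075 reads in 5 contigs. In rat somas the first intron of Pde4b held 14 contigs with 4652 reads, the first of the adhesion protein Opcml 12 with 7544 and the second of the potassium channel Kcnh7 11 with 3570. Most reads there were in the second intron of LOC679651, 10192 in 9 contigs, the fourth of Ube3a, a ubiquitin ligase, 8681 in 9, and the second of the phosphatase Ptprg, 8600 in 6.

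Genes of neuronal adhesion had member introns in all 6 lists. Of 54 listed adhesion genes 21 had a member intron in mouse dendrites, 7 of 44 in mouse somas, 22 of 59 in BAT cells, 3 of 39 in cardiomyocytes, 6 of 34 in rat dendrites and 6 of 34 in rat somas. They made up 7.58%, 9.59%, 4.01%, 3.57%, 28.6% and 24.0% of member genes against 0.627%, 0.746%, 0.577%, 0.629%, 0.758% and 1.00% of all listed genes. Among them were Nrxn3, a presynaptic adhesion protein, the contactin Cntn5, the axon guidance receptors Dcc and Robo1, and cadherins such as Cdh8 and Cdh12. Nearly the same number of adhesion genes in BAT cells as in dendrites had a member intron. In cardiomyocytes the 3 genes were Ctnna3, Il1rapl1 and Robo1.

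Genes of receptors, scaffolds and channels had member introns in some lists and not in others. Glutamate and GABA receptor genes with a member intron numbered 7 of 32 listed in mouse dendrites, 6 of 30 in mouse somas, 11 of 28 in BAT cells, 1 of 15 in cardiomyocytes, 0 of 15 in rat dendrites and 1 of 20 in rat somas. Receptor genes made up 2.53%, 8.22%, 2.01%, 1.19%, 0% and 4.0% of member genes against 0.372%, 0.509%, 0.274%, 0.242%, 0.334% and 0.589% of all listed genes. Gria4, Grin3a and Grm5 were among them in both mouse neuron lists and in BAT cells. Genes of synaptic scaffolds and vesicle release numbered 7 of 31, 4 of 30 and 11 of 31 in mouse dendrites, mouse somas and BAT cells, and 0 of 21, 0 of 21 and 0 of 24 in cardiomyocytes, rat dendrites and rat somas. In the lists with such members the shares were 2.53%, 5.48% and 2.01% of member genes against 0.360%, 0.509% and 0.303% of listed genes, and Dlgap2, Magi2 and Rims1 were in all 3. Genes of a list of ion channels and their subunits, not all of them voltage-gated, numbered 6 of 32, 4 of 28, 8 of 34, 3 of 21, 0 of 22 and 2 of 17, with Cacnb2 and Kcnj3, an inward rectifier, in all 4 mouse lists. They made up 2.17%, 5.48%, 1.46%, 3.57%, 0% and 8.0% of member genes against 0.372%, 0.475%, 0.333%, 0.338%, 0.491% and 0.501% of listed genes.

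Muscle and fat genes followed. Of genes of the sarcomere and the dystrophin complex, 2 of 26 listed had a member intron in mouse dendrites, 1 of 17 in mouse somas, 4 of 28 in BAT cells and 3 of 35 in cardiomyocytes, where they were Dmd, Nebl and Sgcd. In rat dendrites 1 of 9 did and in rat somas 0 of 8. Their share of member genes was 0.722%, 1.37%, 0.730%, 3.57%, 4.76% and 0% against 0.302%, 0.288%, 0.274%, 0.564%, 0.201% and 0.236% of listed genes. Brown fat and lipid genes numbered 3 of 35 in BAT cells, namely Cd36, Ghr and Zfp423, 1 of 21 in mouse dendrites, 1 of 14 in rat dendrites and 0 of 14, 0 of 18 and 0 of 9 in mouse somas, cardiomyocytes and rat somas. Brown fat and lipid genes were 0.547% of member genes in BAT cells against 0.342% of listed genes, 0.361% against 0.244% in mouse dendrites and 4.76% against 0.312% in rat dendrites. Shares from 1 gene rest on that gene alone. The genes of these lists differ in intron length, so the counts describe the members and were not tested.

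Some genes had several member introns. In mouse dendrites 48 of 277 genes had 2 or more, in BAT cells 87 of 548, in mouse somas 10 of 73 and in cardiomyocytes 8 of 84. Lrp1b, a giant lipoprotein receptor, had 6 in mouse dendrites with 54 contigs and 5982 reads, and 5 in BAT cells with 38 contigs. Astn2, a protein of neuronal migration, also had 6 in mouse dendrites, with 35 contigs. Il1rapl1 had 4 in mouse dendrites with 75 contigs and 4 in BAT cells with 78. Reln, the secreted guidance protein reelin, had 4 in mouse somas with 33 contigs, and Dmd had 3 in cardiomyocytes with 65 contigs and 207001 reads. In rat somas Nrxn3 and Ube3a were among them, each with 2.

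The same intron was usually listed in the other mouse lists too, though often with fewer contigs. Of 358 dendrite members, 286 (79.9%) were also listed in mouse somas, where the figure for all dendrite introns was 25.9%. In BAT cells 346 (96.6%) were listed against 48.6% of all, and in cardiomyocytes 237 (66.2%) against 24.0%. Those listed had 5 or more contigs again in 54, 223 and 37 cases. The median contig number of the introns listed was 2 in somas, 6 in BAT cells and 2 in cardiomyocytes. Dendrite introns with 2 to 4 contigs were listed in somas in 42.6% of cases, in BAT cells in 71.5% and in cardiomyocytes in 36.4%. These shares lay between those of members and of all introns, as they did for the other lists. The part of intron length in this sharing was not tested.

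Of 86 soma members, 82 (95.3%) were listed in mouse dendrites against 47.8% of all soma introns, 82 in BAT cells against 55.5%, and 58 (67.4%) in cardiomyocytes against 32.9%. They were members there in 54, 56 and 19 cases. Of 676 BAT members, 618 (91.4%) were listed in mouse dendrites against 31.6%, 445 (65.8%) in mouse somas against 19.5% and 451 (66.7%) in cardiomyocytes against 26.1%. They were members there in 223, 56 and 62 cases. Of 93 cardiomyocyte members, 85 (91.4%) were listed in mouse dendrites against 35.9%, 73 (78.5%) in mouse somas against 26.6% and 90 (96.8%) in BAT cells against 60.0%. They were members there in 37, 19 and 62 cases.

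The shared members amounted to a different part of each list. The 223 introns that were members in mouse dendrites and BAT cells were 62.3% of the dendrite members and 33.0% of the BAT members. The 54 shared by dendrites and somas were 15.1% of the dendrite members and 62.8% of the soma members. Between somas and cardiomyocytes the 19 shared introns were 22.1% and 20.4%. The 62 shared by cardiomyocytes and BAT cells were 66.7% of the cardiomyocyte and 9.17% of the BAT members, and the 37 shared by cardiomyocytes and dendrites 39.8% and 10.3%. All 86 soma and all 93 cardiomyocyte members were listed in at least 1 other mouse list, as were 355 of 358 in dendrites and 661 of 676 in BAT cells.

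In rat, 17 of 22 dendrite members (77.3%) were listed in somas against 24.9% of all dendrite introns, and 24 of 28 soma members (85.7%) in dendrites against 34.8%. The 8 introns that were members of both lists made up 36.4% of the dendrite and 28.6% of the soma members. Among them were introns of Cadm1, Ncam1, Nkain3, Nlgn1, Opcml, Pde4b and RGD1564943. Opcml had 7 contigs with 314 reads in dendrites and 12 with 7544 in somas, and Ncam1 had 17 with 2748 and 7 with 1687. Somas thus had more contigs for Opcml and dendrites for Ncam1.

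By gene symbol, 6 of the 15 dendrite member genes of the rat that were also listed in mouse had a member intron there, 40% against 7.27% of all rat dendrite genes listed in mouse. Pde4b, Qk, Sgcd, Tacr1 and Wnk1 were among them. In rat somas 4 of 19 did, 21.1% against 8.61%, among them Kcnh7, Nrxn3 and Pde4b. The first intron of Pde4b held 7 contigs in rat dendrites and 14 in rat somas, and in mouse 15 in dendrites, 4 in somas, 15 in BAT cells and 25 in cardiomyocytes. Intron numbers follow the RefSeq transcript of each species, and the introns were not aligned between species.

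The 13 introns that were members in all 4 mouse lists lay in Cacnb2, Dmd, Dst, Erbb4 (2 introns), Il1rapl1, Jarid2, Kcnj3, Large, Plxdc2, Qk (2 introns) and Rnls. Without contigs in repeated sequence, defined further on, 11 stayed members in all 4, while in cardiomyocytes the second intron of Il1rapl1 had 1 contig left of 5 and the first of Plxdc2 2 of 5. In BAT cells 9 of 16 contigs were left in Cacnb2, 9 of 15 in Kcnj3 and 11 of 19 in Rnls. In cardiomyocytes 5 of 8 were left in Large, 5 of 8 in Kcnj3 and 6 of 9 in Jarid2. In the second intron of Cacnb2 the contigs numbered 18 in mouse dendrites, 12 in mouse somas, 16 in BAT cells and 38 in cardiomyocytes, with 3529, 1279, 2135 and 108413 reads. The first intron of Dmd had 12, 6, 26 and 33 contigs with 1673, 565, 12396 and 163979 reads. In both, the cardiomyocytes were highest by contigs and reads. The second intron of Il1rapl1 had 30, 24, 37 and 5 contigs with 1164, 3852, 7387 and 222 reads, which put the cardiomyocytes lowest.

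The second intron of Erbb4, a receptor of neuregulin, had 17, 12, 13 and 17 contigs, and its intron 3 had 9, 7, 11 and 17. The sixth intron of Large, a glycosyltransferase that acts on dystroglycan, had 15, 16, 19 and 8, and the second of Kcnj3 14, 8, 15 and 8. The fourth intron of Rnls, the flavoprotein renalase, had 15, 5, 19 and 9, and the second of Jarid2, a partner of Polycomb complexes, 5, 5, 17 and 9. The first intron of Dst, a cytoskeletal linker, had 5, 9, 6 and 8, and that of Plxdc2 6, 8, 10 and 5. Qk, an RNA-binding protein of splicing, had 5, 5, 7 and 7 in its first intron of 35750 nt and 5, 7, 6 and 9 in intron 3, of 34910 nt. These 2 were the shortest of the 13, while the other 11 ran from 74326 to 470851 nt.

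**Figure D4:**
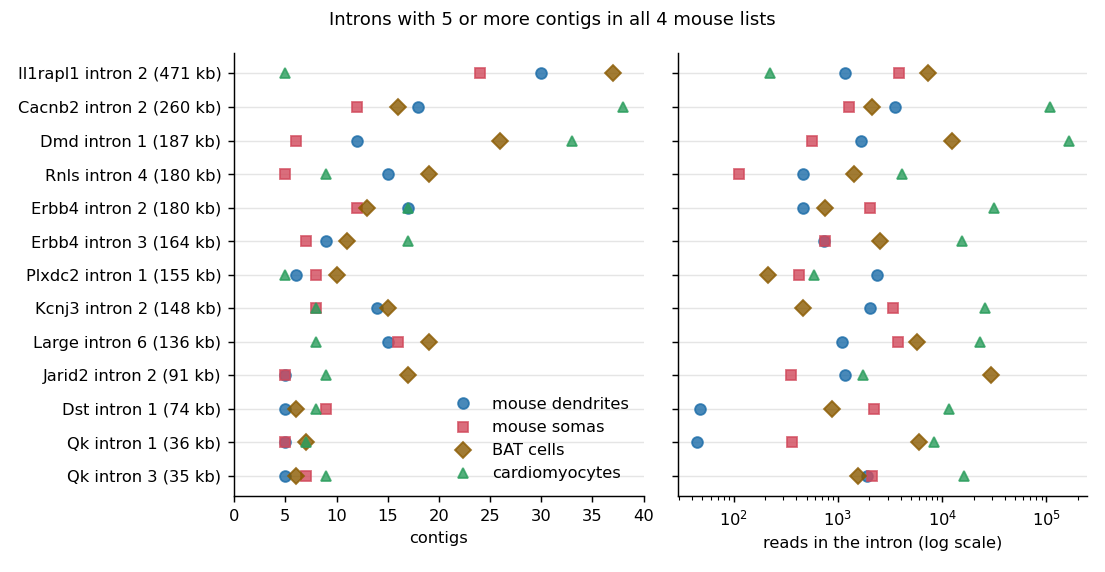
The left panel gives the number of contigs and the right panel the reads of the intron on a logarithmic axis for the 13 introns, ordered by length in kb, with 1 symbol for each mouse list. Cardiomyocytes have the most contigs in the second intron of Cacnb2 (38) and the first of Dmd (33), and the fewest in the second of Il1rapl1 (5).

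Another 56 introns were members in 3 mouse lists. Some of these had fewer than 5 contigs in cardiomyocytes. The fourth intron of Grm5 had 13, 18, 8 and 1 contigs in dendrites, somas, BAT cells and cardiomyocytes, the second of Rims1 6, 18, 9 and 0, intron 13 of Cntn5 12, 12, 13 and 3, and the third of Gria4, an AMPA receptor subunit, 7, 6, 12 and 0. Without contigs in repeated sequence, Cntn5 had 7 of 12 contigs left in dendrites and 10 of 12 in somas. Others of the 56 introns had fewer than 5 in somas. The second intron of Camk2d, a calmodulin-dependent kinase of heart and brain, had 7, 1, 15 and 13, the fourth of Nebl 6, 3, 13 and 23, the first of Eda 23, 3, 19 and 10, and the first of App, the amyloid precursor, 5, 1, 12 and 6. Below 5 in dendrites were, among others, the first intron of the phosphatase Ppm1h with 1, 9, 6 and 6 contigs and that of the kinase Rps6ka3 with 2, 5, 6 and 9.

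Sharing an intron was not the same as sharing a place in it. Among dendrite members also listed in somas, 274 of 2075 contigs (13.2%, 11.8 to 14.7) overlapped a soma contig by at least 1 base, and 13.1% and 7.72% overlapped a contig of BAT cells and of cardiomyocytes. Soma contigs did so in 21.8%, 17.2% and 18.8% of cases for dendrites, BAT cells and cardiomyocytes. For BAT contigs the shares were 11.4% for dendrites, 8.60% for somas and 12.7% for cardiomyocytes, and for cardiomyocyte contigs 12.2% for dendrites, 15.4% for somas and 24.9% for BAT cells. In rat 16 of 125 dendrite contigs and 29 of 175 soma contigs overlapped one of the other list.

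The shared part of the contig bases was larger than the covered part of the introns. The covered part was taken over all bases of an intron, also those where reads may not map uniquely. Of the bases in dendrite member contigs, 9.22% lay in a soma contig, while soma contigs covered 1.72% of these introns, a ratio of 5.36. The ratio was lowest for dendrite members in BAT cells, at 2.52. Between BAT cells and cardiomyocytes it was 4.30 from the BAT members and 3.59 from the cardiomyocyte members. Contigs of introns with 2 to 4 contigs overlapped more often, from 18.7% for dendrites in cardiomyocytes to 42.6% for cardiomyocytes in BAT cells. Their ratio was also higher for every pair of mouse lists, such as 6.29 for dendrites in somas and 2.95 for dendrites in BAT cells. Reads from sequence that occurs more than once, and tracts of adenines, can fall at the same place in several lists, and their part in the overlap was not tested.

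The 13 introns shared by all 4 mouse lists comprised 2117475 nt. Of these bases, 87.5% were in no contig, 10.4% in a contig of 1 list, 1.68% of 2, 0.318% of 3 and 0.113% of all 4. The 9 stretches common to all 4 lists summed to 2384 nt and ran from 52 to 449 nt, with a median of 239 nt. Cacnb2 held 3 of them, Large 2, the third intron of Qk 2, and the first intron of Qk and Il1rapl1 1 each. In Cacnb2 the 3 stretches had 78.9%, 40% and 88.0% of their 32-base words elsewhere in the genome, while in Large and Qk all 5 had 0%.

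Of 10 equal parts of an intron, the one at the 5′ end held the most member contigs in mouse somas and cardiomyocytes. The midpoint was in the 5′ part of the intron, before its middle, for 51.9% of contigs in mouse dendrites (49.99 to 53.9, which includes an even 50%), 55.8% in mouse somas (52.0 to 59.6), 51.9% in BAT cells (50.5 to 53.4) and 55.8% in cardiomyocytes (52.3 to 59.2). With the intron cut into 10 equal parts, the part at the 5′ end held 10.7%, 12.8%, 10.9% and 13.7% of contigs and the part at the 3′ end 9.06%, 8.09%, 9.56% and 8.70%. An even placement would give 10% in each, and in dendrites and BAT cells the fullest part, with 11.0%, was another one. Member contigs rarely touched an annotated exon of another transcript, in 1.23%, 2.95%, 2.01% and 4.22% of cases against 6.50%, 11.4%, 9.99% and 13.1% of contigs of introns with 1 contig. Introns with 1 contig were much shorter, and the part of intron length in this difference was not tested. The GC content of member contigs was 38.6%, 38.1%, 39.2% and 38.3%, close to the 39.7%, 38.6%, 40% and 39.5% of the introns that held them.

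Tracts of adenines like those shown above lay downstream of some member contigs. A tract of 10 or more A on the strand of the host gene began within 300 nt after the end of 7.20% of member contigs in mouse dendrites, 17.7% in mouse somas, 6.55% in BAT cells and 8.18% in cardiomyocytes. Windows of 300 nt over the same introns held one in 2.59%, 2.78%, 2.69% and 2.85% of cases. The other strand is read as 10 or more T before the start of a contig, which occurred for 10%, 7.93%, 8.27% and 6.01% of contigs against 3.72%, 3.50%, 4.00% and 4.03% of windows. A before a contig and T after it were near the window shares, from 1.87% to 2.89% for A and from 3.07% to 4.45% for T. In introns with 1 contig the downstream shares of A were 7.71%, 17.5%, 6.53% and 8.56%, against 3.48%, 3.65%, 3.43% and 3.67% of windows. The ratio of contigs to windows was 2.21, 4.78, 1.90 and 2.33 there and 2.78, 6.37, 2.44 and 2.88 in the members.

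**Figure D5:**
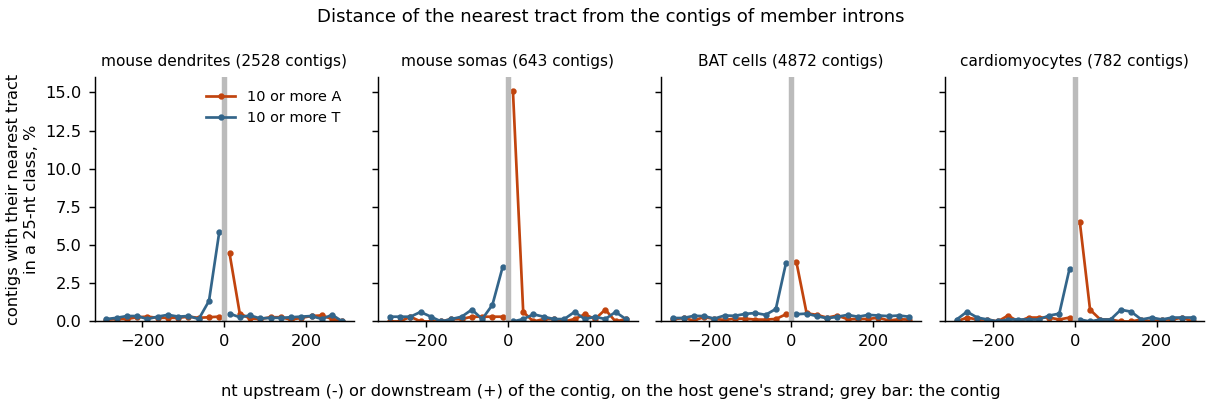
For each mouse list the vertical axis gives the percentage of member contigs whose nearest tract of 10 or more A or T begins in a class of 25 nt, and the horizontal axis the distance upstream or downstream of the contig in nt on the strand of the host gene. For A downstream and T upstream the class next to the contig is highest, with A downstream of 15.1% of contigs in mouse somas and 4.47% in mouse dendrites, and T upstream of 3.58% and 5.85%.

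Where a tract of A lay downstream, it was close. The median distance from the contig's end was 14 nt for 182 contigs in mouse dendrites, 3 nt for 114 in mouse somas, 14 nt for 319 in BAT cells and 7 nt for 64 in cardiomyocytes. Tracts within 50 nt made up 69.2%, 88.6%, 67.7% and 89.1% of them. The median length of the tracts, counted outside the contig, was 13, 13.5, 13 and 12 bases. Most member contigs, more than 4 in 5 in every mouse list, had no such tract within 300 nt after their end on the strand of the host gene.

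BAT cells differed from the other mouse lists in repeated sequence. Of all 32-base words in member contigs, 21.1% occurred more than once in the mouse genome in BAT cells, against 13.0% in mouse dendrites, 9.27% in mouse somas and 9.91% in cardiomyocytes. Windows of 300 nt from the same introns had 12.9%, 12.2%, 12.8% and 10.9% in the order BAT cells, dendrites, somas, cardiomyocytes, and BAT introns with 1 contig had 10.5%. Contigs with over 50% repeated words numbered 1130 of 4872 (23.2%) in BAT cells, 296 of 2528 (11.7%) in dendrites, 43 of 643 (6.69%) in somas and 98 of 782 (12.5%) in cardiomyocytes. Without these contigs 440 of 676 introns kept 5 or more in BAT cells, 282 of 358 in dendrites, 80 of 86 in somas and 75 of 93 in cardiomyocytes. BAT cells thus lost the largest share of members.

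The leading introns were affected unequally. In BAT cells 13 of 37 contigs in the second intron of Il1rapl1 were of this kind, 10 of 21 in the third of Cntnap5c and 6 of 26 in the first of Dmd. In cardiomyocytes the second intron of Cacnb2 had 2 of 38, the first of Dmd 1 of 33 and the first of Pde4b 0 of 25. The number of introns that were members in 3 lists went from 56 to 41, and the number in 2 lists from 205 to 133.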

How the data were processed

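The authors removed adapter, poly-A and poly-T sequence from the reads, which can move the ends of contigs beside such tracts, aligned the reads of 26 libraries to mm9 or rn4, kept uniquely mapped reads, removed introns that overlapped predicted genes or known poly(A) sites, and joined reads within 500 nt into contigs. Their text names both Bowtie and RUM as aligner. The values used were counts of reads per transcript and intron, deposited by the authors as lists pooled over the libraries of a group, so depth per library was not analysed here. Coordinates were taken as 1-based. Lengths, sequences and exons of mouse introns came from the NCBIM37 genome and GENCODE annotation, and those of rat introns were not analysed here. The sequencing protocol was not strand-specific, so the strand of tracts and matches is that of the host gene and not of the reads.

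The members and lists were chosen with earlier results of these data known. Named introns were the 3 with the most contigs, the 3 with the most reads and the longest span of each list, those in 3 or more lists, rat genes with a mouse member, and examples from the gene lists, the markers and the genes with several member introns. Rpl26, Gm10136 and the last of these were named after their values were seen. Shares were given with 95% Wilson intervals in Python 3.11.15 (pandas 2.3.3, statsmodels 0.14.6), and sequences were read with pysam 0.24.0. The counting was tested on simulated data. Alternatives joined contigs closer than 1000 or 2000 nt, kept contigs up to 400 nt or introns with at least 32 reads, and set the limit at 4 or 6 contigs. The removal of contigs in repeated sequence was chosen after seeing the data. Some members are not reported here.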

Additional observations from a re-analysis of the deposited data

How the results depend on the processing

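The number of members depended on the limit and on contig length. With at least 4 contigs it was 641 in mouse dendrites, 164 in mouse somas, 1136 in BAT cells, 197 in cardiomyocytes, 49 in rat dendrites and 59 in rat somas. With at least 6 it was 223 in mouse dendrites, 420 in BAT cells, 58 in cardiomyocytes and 12 in rat dendrites. With contigs of at most 400 nt, the authors' own limit for somas, BAT cells and cardiomyocytes, it was 171, 26, 290, 29, 12 and 4 over the 6 lists in the first order. Joining contigs closer than 2000 nt left 378 in BAT cells and 12 in rat dendrites. Leaving out contigs in repeated sequence, an alternative chosen after seeing the data, left 440 in BAT cells. The share of BAT members with a contig of another list inside their span, whatever the transcript, was 95.4%, below the 97.8% listed by transcript and intron number. The other 32 alternatives for these counts and shares stayed within 1.5 times or within the counting interval, and of 28 alternatives for overlap, spacing, coverage and tracts 16 moved by more than that. Requiring an overlap of at least 50% of the contig, which can only lower the shares of overlapping contigs, took that of dendrites in somas from 13.2% to 8.53% and that of somas in BAT cells from 17.2% to 8.69%, and over the 12 pairs of mouse lists left 4.98% to 15.7%. No paired analysis was possible because each list pools the libraries of its group and no test was made. For the same reason single libraries were not removed. The depth of a pooled list limits what an absent contig means.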
